A study of Rattus norvegicus with 11 samples.

Results

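The genes described here encode the nuclear subunits of respiratory chain complexes II, III and IV and of ATP synthase, complex V, in rat soleus, a leg muscle made mostly of slow oxidative fibres. Members were the rows of the gene count table whose symbol was Sdha, Sdhb, Sdhc, Sdhd, Cyc1 or Atpif1 or began with Uqcr, Cox4 to Cox8 or Atp5, which gave 47 of 16810 rows. Of these, 41 were subunit genes and 6 were other rows caught by the same symbols. The study measured RNA in the soleus of 11 male Sprague Dawley offspring at 12 months of age, each from a different litter. In the 5 high-fat animals the mother was fed a diet raised in fat and sucrose, starting 3 weeks ahead of mating and kept up through pregnancy and lactation, and in the 6 control animals the mother was fed a control diet over the same time. The labels give the maternal fat content in one place as 23.3% for high-fat and 6% for control and in another as 23.5% and 7%, with sucrose at 20% and 10%. After weaning, at day 21, animals of both groups ate the same standard chow, so that the groups differ in what the mother ate and not in their own later diet.

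Complex II oxidises succinate and hands its electrons to ubiquinone, complex III passes them from ubiquinol to cytochrome c, and complex IV passes them from cytochrome c to oxygen. Complexes III and IV pump protons across the inner mitochondrial membrane, and complex V makes ATP as the protons flow back. Some small subunits of complex IV come in a form found in heart and skeletal muscle and a form found in liver and most other tissues, and slow muscle, which relies on oxidative metabolism, holds these complexes in large amounts.

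Levels are given as CPM, the reads of a gene per 1000000 reads assigned to genes, after scaling of the library totals by edgeR's TMM method. A CPM value is not divided by transcript length, so levels were compared between animals and not between genes. Libraries held 10156225 to 15362013 counts in high-fat animals and 10560300 to 15358816 counts in control animals, and the members together took 2.89% to 4.44% of all counts. Fold changes are log2 values of high-fat over control, so a negative value means a lower level in high-fat animals. A gene was called when its p from edgeR's quasi-likelihood test, adjusted by Benjamini-Hochberg over all 10814 genes tested, was below 0.05. Reads were 36 cycles long, and many of these genes have processed pseudogenes and close paralogues. Some of a gene's reads may therefore have been lost or assigned elsewhere, and how many was not measured. Genes are given by symbol, without positions, because no source used here names the genome build behind the counts.

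Most subunit genes had a lower mean in high-fat muscle by a small amount, and none passed the test. Of the 41 subunit genes, 40 had enough counts to be tested, and Cox8c, the testis form of subunit 8, was at 0 counts in every animal, which with a limit of 3 counts allows at most 0.179 to 0.320 CPM, depending on the library, by counting error alone. The fold change was negative for 36 of the 40 and positive for 4, with a median of -0.12 and a range of -0.36 to 0.19, while over all genes tested the median was 0.00 and 49.1% were lower. Among the 1333 genes with a mean of at least 100 CPM, 59.2% were lower and the median was -0.03. With an adjusted p below 0.05, 0 of 45 members tested were called, beside 0.00% of all genes (edgeR's quasi-likelihood test). At an unadjusted p below 0.05 the count was again 0 of 45, where the share of all genes was 4.84%, made up of 1.39% lower and 3.45% higher in high-fat animals. The high-fat and control values overlapped for every member tested, so that 0 of 45 were separated, beside 0.370% of all genes. For 6 of the 40 subunits the fold change was larger than its standard error. These are whole-muscle samples, in which fewer cells of a type and less RNA per cell cannot be told apart.

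The count of lower subunits rested on a few animals. Leaving out high-fat animal 5 gave 27 lower and 13 higher with a median of -0.03, leaving out control animal 4 gave 27 lower and 13 higher with a median of -0.04, and leaving out control animal 6 gave 29 lower and 11 higher with a median of -0.05. Without control animal 3 the count was 37 lower and 3 higher, with a median of -0.19, and Cox7b and Atp5j then had an unadjusted p below 0.05 but no adjusted one. Marker lists of muscle fibres and of other cells were set beside the subunits in the same comparison. The adipocyte list had 4 of 7 tested genes lower and 3 higher in high-fat animals, with a median of -0.03. The macrophage list had 11 of 11 tested genes higher in high-fat animals with a median of 0.68, and its summed level of 12 rows spanned 296 to 1837 CPM in high-fat animals and 354 to 1037 CPM in control animals. The highest of these sums was in high-fat animal 5, and without that animal the list's median was 0.31. Fast fibre markers, which had 7 of 8 lower with a median of -0.70 (-1.22 without high-fat animal 2, -0.46 without high-fat animal 4 and -0.38 without control animal 4), spanned 3364 to 26861 CPM in high-fat animals and 1952 to 35255 CPM in control animals. Slow fibre markers had 7 of 8 lower with a median of -0.09 (-0.02 without high-fat animal 5 and -0.15 without control animal 2) and spanned 75145 to 106166 CPM in high-fat animals and 85060.0 to 105798 CPM in control animals. None of these list genes was called, no gene of the slow or fast fibre lists was at 0 in any animal, and the part of the markers in the subunits' values was not tested.

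**Figure D1:**
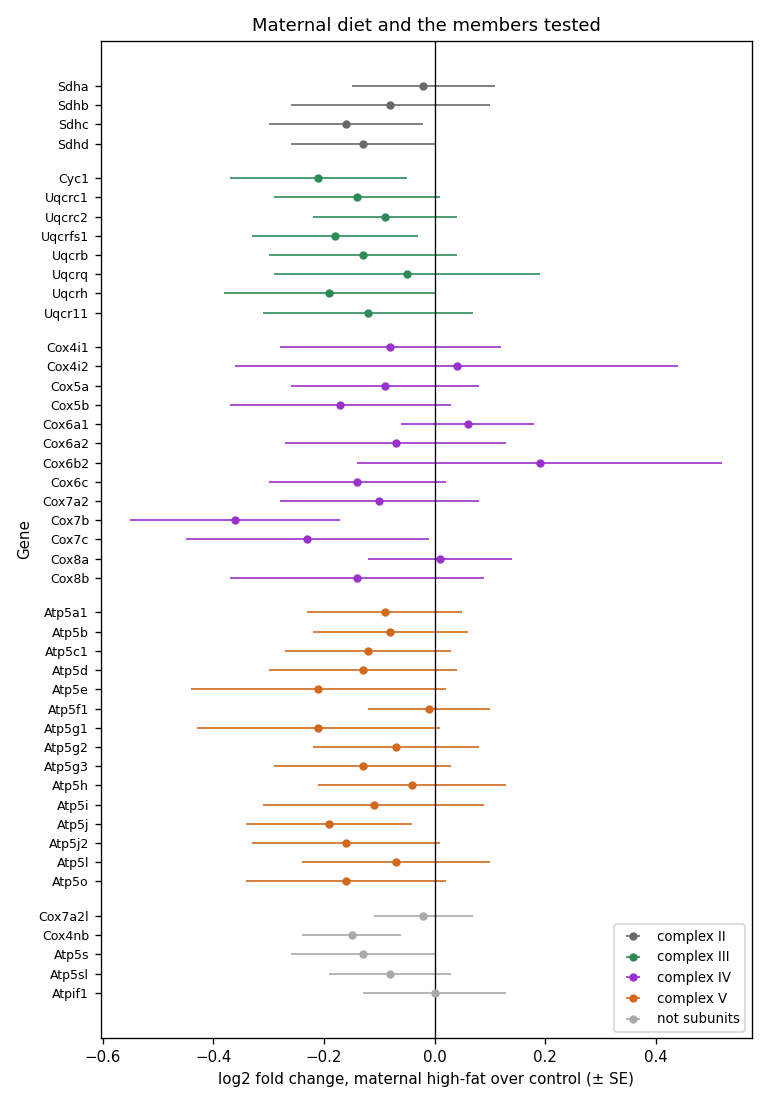
Log2 fold change of each tested member, high-fat over control, with its standard error derived from edgeR's F statistic, grouped by complex. Fold changes run from -0.36 for Cox7b to 0.19 for Cox6b2, and 36 of the 40 subunits lie below 0.

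The 4 genes of complex II are all nuclear. Sdha, the flavoprotein that holds the succinate site, had 508, 684, 506, 706 and 577 CPM in high-fat animals 1 to 5, against a lowest, median and highest value of 525, 587 and 740.4 CPM in control animals. Its values overlapped between the diets, the lowest was in a high-fat animal and the highest in control animal 6, and the log2 fold change was -0.02 ± 0.13 (SE). Sdhb, the iron-sulfur protein that carries electrons onward, had 952, 1044, 891, 838 and 546 CPM in high-fat animals, against 708, 848 and 1159.8 CPM in control animals. High-fat animal 5 stood below every other animal and control animal 4 above, and the fold change was -0.08 ± 0.18. Sdhc, a membrane anchor, had 465, 608, 512, 512 and 404 CPM in high-fat animals, against 441, 527 and 690.0 CPM in control animals. Sdhd, the other membrane anchor, had 401, 486, 434, 416 and 317 CPM in high-fat animals, against 363, 446 and 574 CPM in control animals. High-fat animal 5 was lowest and control animal 6 highest for both anchors, the groups overlapped, and the fold changes were -0.16 ± 0.14 and -0.13 ± 0.13, with unadjusted edgeR p of 0.290 and 0.336. All 4 genes had a negative fold change, with a median of -0.11, and the median ratio of the highest to the lowest animal was 1.76.

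Complex III was represented by 8 tested genes, all with a negative fold change, a median of -0.13 and a range of -0.21 to -0.05. Uqcr10, a small subunit, is not analysed here. Cyc1, cytochrome c1, had 659.7, 861, 746, 729 and 497 CPM in high-fat animals, against 638, 770.2 and 1010.2 CPM in control animals. High-fat animal 5 was lowest and control animal 4 highest, the other values of the groups were mixed, and the fold change was -0.21 ± 0.16. Uqcrfs1, the Rieske iron-sulfur protein, had 560.0, 659, 553, 562 and 399.9 CPM in high-fat animals, against 463, 619.6 and 774 CPM in control animals, a fold change of -0.18 ± 0.15. Uqcrh, the hinge protein, had 506, 506, 506, 429 and 375 CPM in high-fat animals, against 345, 482 and 784 CPM in control animals, a fold change of -0.19 ± 0.19. The high-fat values of Uqcrh lay inside the control range, whose lowest was control animal 3 and highest control animal 4. The core proteins Uqcrc1 and Uqcrc2 averaged 762 ± 143 and 505 ± 61.1 CPM in high-fat animals, against 837 ± 145 and 536 ± 85.4 CPM in control animals (SD, n = 5 and 6).

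Complex IV had 13 tested nuclear subunits, of which 9 had a negative and 4 a positive fold change, with a median of -0.09. Cox6b1 and Cox7a1, the muscle form of subunit 7a, are not analysed here. Cox7b, a small subunit of the enzyme's nuclear-coded shell, had the smallest p of any member, 0.0856 unadjusted and 0.974 adjusted in edgeR's test. It had 436, 444, 412, 386 and 338 CPM in high-fat animals, against 333, 467 and 820.0 CPM in control animals. The 5 high-fat values fell in a narrow band inside the control range, control animals 3 and 4 were its ends, and the fold change was -0.36 ± 0.19, with -0.46 to -0.18 over the fits that left out 1 animal. Cox7c had 989, 1064, 942, 912 and 615 CPM in high-fat animals, against 659, 989 and 1547 CPM in control animals, a fold change of -0.23 ± 0.22. Cox6c had 781, 680.2, 665, 623 and 468 CPM in high-fat animals, against 493, 735 and 888 CPM in control animals, a fold change of -0.14 ± 0.16. For both genes high-fat animal 5 was lowest and a control animal was highest.

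Cox4i1, the common form of subunit 4, had 1568, 1651, 1442, 1395 and 902 CPM in high-fat animals, against 1137, 1262 and 2119 CPM in control animals, a fold change of -0.08 ± 0.20. High-fat animals 1 to 4 all lay above the control median, high-fat animal 5 lay below every control animal, and control animal 4 was highest. Its lung form Cox4i2 was low, at 6.74, 9.49, 10.6, 3.00 and 3.52 CPM in high-fat animals, against 2.94, 5.70 and 10.4 CPM in control animals. Both diets held animals near 3 CPM and animals near 10 CPM, and the fold change of 0.04 ± 0.40 had the widest error of any member. Cox6b2, known as a testis form, was close to the detection limit, at 0.637 to 1.51 CPM in high-fat animals and 0.509 to 1.39 CPM in control animals, and its positive fold change of 0.19 ± 0.33 rests on few reads.

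Complex V had 15 tested genes, all with a negative fold change, a median of -0.12 and a range of -0.21 to -0.01. In the catalytic head, Atp5a1 and Atp5b, the alpha and beta subunits, averaged 2150.1 ± 324 and 4173 ± 631 CPM in high-fat animals, against 2281 ± 346 and 4419.6 ± 607 CPM in control animals (SD, n = 5 and 6). Atp5e, the epsilon subunit of the central stalk, had 1437, 1374, 1137, 1035 and 839 CPM in high-fat animals, against 855, 1209.6 and 2222 CPM in control animals. Control animal 4 stood well above the rest, high-fat animal 5 was lowest, and the fold change was -0.21 ± 0.23, with -0.01 without control animal 4 and -0.11 without high-fat animal 5. Atp5j, coupling factor F6 of the peripheral stalk, had 392, 359.9, 402, 354 and 307 CPM in high-fat animals, against 276, 417 and 512 CPM in control animals, a fold change of -0.19 ± 0.15. All 5 high-fat values of Atp5j lay below the control median and above the lowest control value. Atp5j2, subunit f of the membrane part, had 288, 268, 242, 229 and 169.7 CPM in high-fat animals, against 201, 248 and 376 CPM in control animals, a fold change of -0.16 ± 0.17.

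Subunit c of the proton-driven ring is made by 3 genes that encode the same mature protein behind different import sequences. Atp5g1 had 321, 423, 409.6, 330.2 and 237 CPM in high-fat animals, against 274, 361 and 613 CPM in control animals, a fold change of -0.21 ± 0.22. Atp5g2 had 367, 298, 288, 298 and 258 CPM in high-fat animals, against 254, 285 and 409 CPM in control animals, a fold change of -0.07 ± 0.15. Atp5g3 had 1049.9, 1216, 1159, 1049.6 and 743 CPM in high-fat animals, against 829.8, 1129 and 1503 CPM in control animals, a fold change of -0.13 ± 0.16. The groups overlapped for all 3, and the shared mature sequence means that some reads could belong to more than 1 of them.

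The other 6 rows included Cox6c-ps1, a pseudogene at 0 counts in every animal. Atpif1, the inhibitor that stops complex V from running backwards, averaged 187 ± 18.7 CPM in high-fat animals and 187 ± 36.0 CPM in control animals (SD, n = 5 and 6), a fold change of 0.00 ± 0.13. Cox7a2l, a factor for supercomplexes of III and IV, averaged 254 ± 16.3 CPM in high-fat animals and 257 ± 22.2 CPM in control animals. Cox4nb, Atp5s and Atp5sl, now named Emc8, Dmac2l and Dmac2, had fold changes of -0.15 ± 0.09, -0.13 ± 0.13 and -0.08 ± 0.11, and none of the 5 tested rows was called.

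For the average over the subunits, the SD between animals of the same diet was larger than the difference between the diet means. Control animal 4 had the highest level of 24 of the 40 subunits and control animal 6 of 13, while high-fat animal 5 had the lowest level of 27, control animal 3 of 8 and control animal 1 of 3. Averaging the subunits after each was centred on its own mean log2 CPM gave 0.08, 0.14, 0.04, -0.08 and -0.45 in high-fat animals 1 to 5, against -0.14, -0.03, -0.31, 0.43, -0.01 and 0.33 in control animals 1 to 6. The means were -0.05 ± 0.24 in high-fat animals and 0.04 ± 0.28 in control animals (SD, n = 5 and 6). The groups overlapped, the lowest animal was high-fat and the 2 highest were control. Complex averages did not order the top animals alike: complex II averaged 0.38 in control animal 6 and 0.16 in control animal 4, whereas complex IV averaged 0.24 and 0.54 in the same 2 animals. Each gene had equal weight, and the low-count genes Cox6b2 and Cox4i2 of complex IV were at -0.69 and -0.21 in control animal 6. In control animal 4 the 4 genes of complex II were apart, with Sdha, Sdhb, Sdhc and Sdhd at -0.18, 0.43, 0.35 and 0.03. The median SD of log2 CPM over the 11 animals was 0.296 for the 40 subunits. It was 0.216 for all genes of at least 100 CPM, 0.269 for all genes tested and 0.282 for complex I subunits. Among the 40 subunits the SD ran from 0.153 for Atp5f1, the b subunit of the peripheral stalk, to 0.724 for Cox4i2. Leaving out 1 animal moved several fold changes. Without control animal 4 the log2 fold change was -0.05 for Uqcrh, -0.18 for Cox7b, -0.09 for Cox7c, -0.04 for Atp5g1 and -0.04 for Atp5j2, and without high-fat animal 5 it was -0.11 for Cyc1, -0.08 for Uqcrfs1 and -0.05 for Cox6c.

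**Figure D2:**
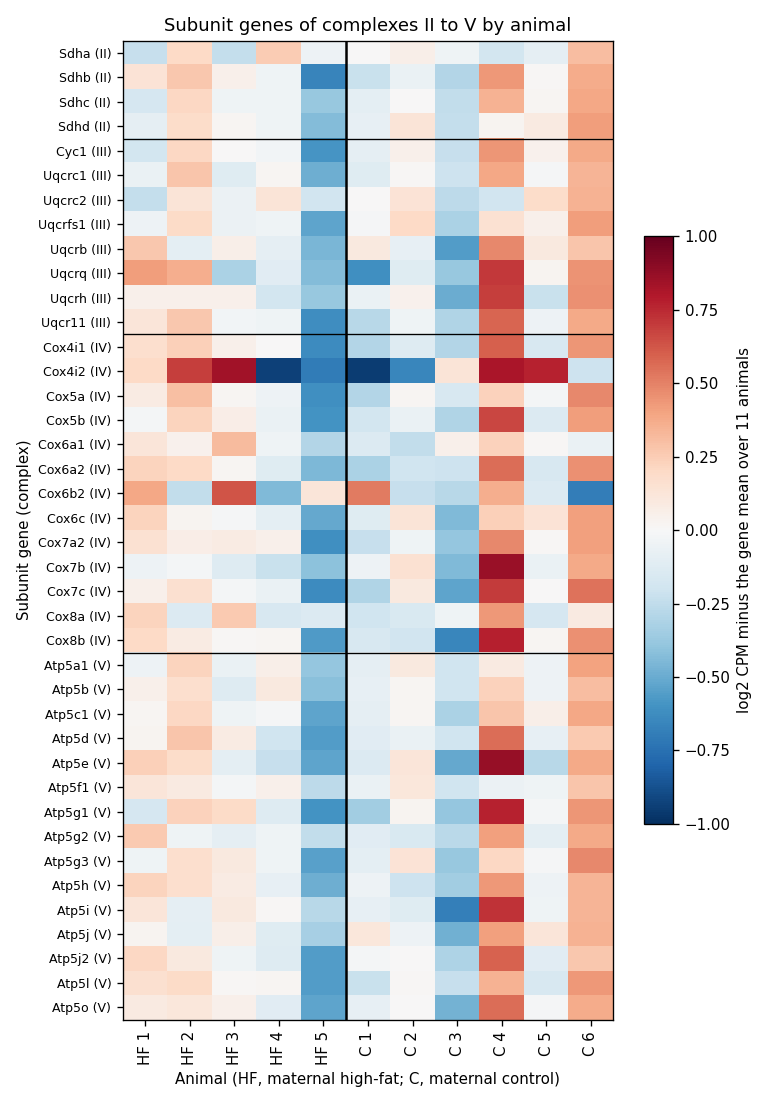
Log2 CPM of each subunit, centred on its mean over the 11 animals, with 1 column for each animal (high-fat left, control right) and 1 row for each gene, by complex. Most rows are low in high-fat animal 5 and control animal 3 and high in control animals 4 and 6. Sdha, Uqcrc2, Cox4i2, Cox6a1 and Cox6b2 are among the rows that depart from that pattern.

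Most members followed the same animals. Over 11 animals the log2 CPM of a member and the mean of the other members had a median Pearson r of 0.89, and 22 of the 45 members, all of them subunits, reached 0.90. Without high-fat animal 5 and control animal 4, the 2 animals farthest from the median, the median r was 0.85 and 16 members reached 0.90. Atp5o, the subunit that ties the head to the peripheral stalk, had r = 0.99 and Spearman's rho = 0.99, and Uqcr11, Cox5b and Cox7c each had r = 0.98. Sdha stood outside this pattern, with r = 0.07 and rho = -0.06, while its partner Sdhb had r = 0.97 and rho = 0.97. The core protein Uqcrc2 had r = 0.31 and rho = 0.24, and its partner Uqcrc1 had r = 0.93 and rho = 0.84. Without the same 2 animals r rose to 0.34 for Sdha and 0.58 for Uqcrc2, beside 0.96 for Sdhb and 0.84 for Uqcrc1. In control animal 4 the centred values of Sdha and Uqcrc2 were -0.18 and -0.19. Among complex IV forms, Cox6b2 had r = -0.08, Cox4i2 had 0.42, and the liver forms Cox6a1 and Cox8a had 0.51 and 0.63, falling to 0.04 and 0.37 without the 2 animals. The liver form Cox7a2 had r = 0.97. All points share libraries and scaling, so these correlations are given as descriptions with no p.

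The muscle and liver forms of subunits 6a and 8 of complex IV allowed a comparison within each library. Cox6a2, the muscle form, had 6291, 6206, 5449.6, 4963 and 3937 CPM in high-fat animals, against 4308, 4760.0 and 7960.3 CPM in control animals, and Cox6a1, the liver form, had 179, 170.2, 206, 161 and 135 CPM in high-fat animals, against 139, 162 and 194 CPM in control animals. Cox8b, the muscle form of subunit 8, had 2312, 2122, 2027, 2032 and 1356 CPM in high-fat animals, against 1281, 1912 and 3439.5 CPM in control animals. Cox8a, its liver form, had 139, 109, 143, 108 and 109 CPM in high-fat animals, against 104, 112 and 162 CPM in control animals. The diets overlapped for all 4 genes, and control animal 4 was highest for both muscle forms. Fold changes were -0.07 ± 0.20 for Cox6a2 and -0.14 ± 0.23 for Cox8b, and 0.06 ± 0.12 for Cox6a1 and 0.01 ± 0.13 for Cox8a.

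Within a library the log2 ratio of reads, muscle form over liver form, was next compared between the diets, since it does not depend on scaling. For Cox6a2 over Cox6a1 it was 5.13, 5.19, 4.73, 4.95 and 4.86 in high-fat animals 1 to 5, against 4.84, 5.08, 4.77, 5.36, 4.86 and 5.55 in control animals 1 to 6. The means were 4.97 ± 0.19 and 5.08 ± 0.32 (SD), a difference of -0.11 that was smaller than either spread (two-sided exact permutation p = 0.535 over 462 splits, adjusted p = 0.849 over 5 ratios). For Cox8b over Cox8a it was 4.05, 4.28, 3.82, 4.24 and 3.64 in high-fat animals, against 4.10, 4.03, 3.46, 4.41, 4.25 and 4.43 in control animals, with a difference of -0.11 (exact permutation p = 0.608). Control animals 4 and 6 had the 2 highest values of both ratios, and control animal 3 was lowest for subunit 8. Cox4i2 over Cox4i1 averaged -7.84 ± 0.66 in high-fat animals and -7.94 ± 0.68 in control animals (exact permutation p = 0.810). Atp5g1 over Atp5g3 averaged -1.61 ± 0.09 in high-fat animals and -1.56 ± 0.27 in control animals, and Atp5g2 over Atp5g3 averaged -1.78 ± 0.25 in high-fat animals and -1.84 ± 0.17 in control animals, with exact permutation p of 0.849 and 0.639. No ratio differed between the diets beyond the spread between animals, and the ratio of Cox7a1 to Cox7a2 was not analysed here.

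**Figure D3:**
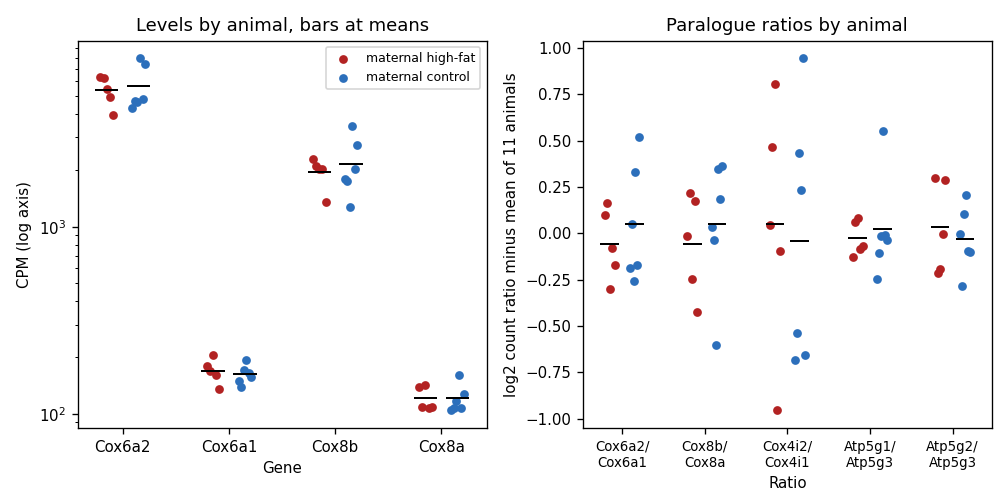
Left, CPM on a log axis of the muscle forms Cox6a2 and Cox8b and the liver forms Cox6a1 and Cox8a in each animal; right, the log2 read ratio of 5 gene pairs after subtracting its mean over 11 animals; high-fat points stand left of control points and bars are group means. High-fat and control points overlap throughout, and the control point set apart at the top of Atp5g1/Atp5g3 is control animal 4.

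The slow myosin gene outweighed the fast ones in every animal. Across the 11 animals both muscle over liver ratios tended to be lower where it did so by more and where matrix genes were high. The log2 ratio of Myh7, the slow myosin heavy chain, to the sum of Myh1, Myh2 and Myh4, the fast ones, was 4.81, 3.38, 5.78, 6.96 and 5.40 in high-fat animals, against 5.37, 3.13, 7.36, 2.96, 4.30 and 3.12 in control animals. With it, Cox6a2 over Cox6a1 had r = -0.76 (permutation p = 0.00706, adjusted p = 0.0212 over 6 relations) and rho = -0.79 (p = 0.00577). Without high-fat animal 4 and control animal 3 this r was -0.83 (exact permutation p = 0.00743). Cox8b over Cox8a had r = -0.67 (permutation p = 0.0251, adjusted p = 0.0377) and rho = -0.73 (p = 0.0141), and r = -0.77 without the same 2 animals. This second relation lost its adjusted call when any of 7 single animals was left out, down to r = -0.49 without control animal 3.

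The summed matrix markers spanned 2046 to 4504 CPM in high-fat animals and 1638 to 5182 CPM in control animals, with 8 of 11 genes higher in high-fat animals and a median of 0.20, which ran from 0.02 without control animal 6 to 0.53 without control animal 3. With their log2 sum, Cox6a2 over Cox6a1 had r = -0.85 (permutation p = 0.00092, adjusted p = 0.00552) and rho = -0.80 (p = 0.00458), and r = -0.72 without control animals 3 and 6 (exact permutation p = 0.0307). Cox8b over Cox8a had r = -0.72 (permutation p = 0.0122, adjusted p = 0.0244) and rho = -0.83 (p = 0.00267), but r = -0.55 without control animals 3 and 6 (exact permutation p = 0.128). Those 2 animals had the highest and the lowest matrix sum, so leaving them out narrowed the range. For that reason the repeat cannot decide whether either relation rests on them. Without control animal 3 alone, Cox8b over Cox8a had r = -0.65 with the matrix sum and lost its adjusted call. With the macrophage sum the ratios had r = -0.38 (permutation p = 0.243) and r = -0.52 (p = 0.102), with rho = -0.30 (p = 0.372) and -0.50 (p = 0.123), and r = -0.28 and -0.30 without high-fat animals 2 and 5. Neither macrophage relation passed. The myosin and matrix measures were themselves high in the same animals, such as control animal 3, and low in control animal 6, so their parts cannot be told apart here.

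**Figure D4:**
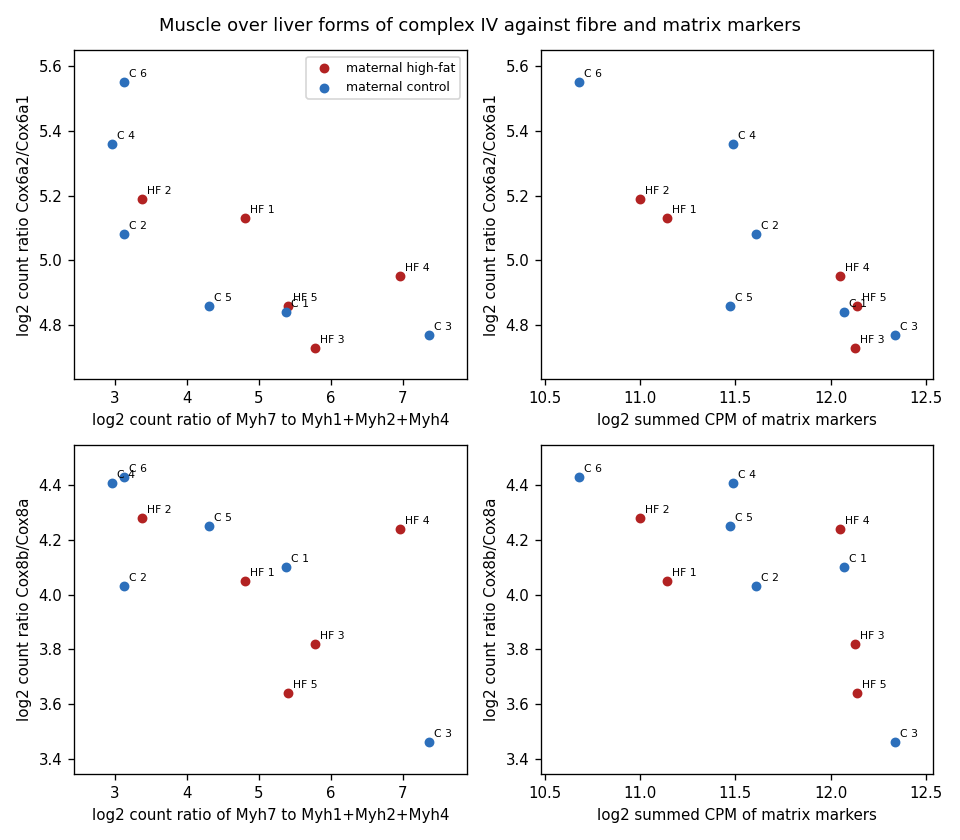
Log2 ratio of muscle to liver form of subunits 6a and 8 against the log2 ratio of Myh7 to fast myosins (left) and the log2 summed CPM of matrix markers (right), with 1 point for each animal coloured by maternal diet. Both ratios decline from left to right in all 4 panels, with high-fat and control animals mixed along the slope.

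The start regions of genes in these pairs, and of the subunit most closely tied to the rest, are shown to set the muscle forms beside a common form. They come from RefSeq on build GRCr8, run from 250 bases ahead of the transcript start to 50 after it, and read 5′ to 3′ on the gene's own strand, the minus strand in every case. Cox6a2 lies at chr1:192219667-192219966, Cox8b at chr1:205408224-205408523, Cox8a at chr1:213833574-213833873 and Atp5o at chr11:44657434-44657733. Capitals mark E-boxes (CANNTG, the core bound by myogenic basic helix-loop-helix factors) in all 4 regions, and also the ETS motif CCGGAAGT and the oestrogen-related receptor motif AAGGTCA, both on their reverse strand, in Cox8a, and the motif of nuclear respiratory factor NRF1 in Atp5o, where it read GCGCATGCGC and any base was allowed at the sixth place.
Cox6a2: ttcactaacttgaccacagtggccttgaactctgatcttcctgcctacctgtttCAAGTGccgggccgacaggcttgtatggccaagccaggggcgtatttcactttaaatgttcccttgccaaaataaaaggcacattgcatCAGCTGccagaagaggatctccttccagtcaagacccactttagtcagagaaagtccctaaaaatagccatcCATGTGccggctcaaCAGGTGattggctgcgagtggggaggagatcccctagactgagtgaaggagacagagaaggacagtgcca
Cox8b: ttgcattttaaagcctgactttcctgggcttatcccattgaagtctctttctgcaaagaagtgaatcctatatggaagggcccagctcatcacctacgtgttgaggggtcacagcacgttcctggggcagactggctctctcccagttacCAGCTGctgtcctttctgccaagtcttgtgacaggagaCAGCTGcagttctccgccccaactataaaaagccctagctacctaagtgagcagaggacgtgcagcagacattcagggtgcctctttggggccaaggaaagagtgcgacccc
Cox8a: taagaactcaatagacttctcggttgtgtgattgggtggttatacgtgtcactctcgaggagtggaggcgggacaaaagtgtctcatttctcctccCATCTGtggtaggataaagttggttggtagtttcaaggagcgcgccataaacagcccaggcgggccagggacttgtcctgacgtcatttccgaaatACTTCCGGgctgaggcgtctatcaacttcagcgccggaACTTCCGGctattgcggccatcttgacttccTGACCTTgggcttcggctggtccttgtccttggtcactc
Atp5o: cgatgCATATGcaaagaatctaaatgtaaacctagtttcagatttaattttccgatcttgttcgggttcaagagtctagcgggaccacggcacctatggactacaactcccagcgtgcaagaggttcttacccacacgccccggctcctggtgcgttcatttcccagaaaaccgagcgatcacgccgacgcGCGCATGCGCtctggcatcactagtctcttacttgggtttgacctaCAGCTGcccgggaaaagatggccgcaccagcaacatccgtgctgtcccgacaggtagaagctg
Cox6a2 held 4 E-boxes, at -196, -107, -35 and -20 from the start, and Cox8b held 2, at -100 and -62, both CAGCTG. The liver form Cox8a held 1 E-box, at -154, and the ETS motif at -58 and -20. Atp5o held 2 E-boxes, at -245 and -13, the second of them CAGCTG, and the NRF1 motif at -59. E-boxes were thus present in all 4 regions, and none of the marked motifs overlapped another. Cox7a2, the only other liver form with a start region in the set, held 3 E-boxes, so their number did not separate muscle from liver forms. The motifs were searched on both strands and were chosen as textbook motifs with these data known.

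Of the 45 members tested, 37 had a start region in that set, and they were 33 of the 40 subunits and 4 other rows; Cyc1, Uqcrb, Uqcr11, Cox4i2, Cox6a1, Cox6c, Atp5h and Atp5sl were not used here. The NRF1 motif was in 7 of 33 subunit regions (21.2%), beside 4.71% of all 27457 regions, and these were Sdha, Uqcrc1, Atp5c1, Atp5g2, Atp5g3, Atp5i and Atp5o. AAGGTCA was in 7 (21.2%), beside 4.37% of all regions, and CCGGAAGT in 5 (15.2%), beside 4.01%. The motif of the factor YY1 was in 2 (6.06%), beside 1.16%. The E-box CANNTG was common everywhere, in 26 (78.8%) beside 71.6%, and its form CAGCTG, which CANNTG includes, was in 7 (21.2%) beside 15.1%. TATAAA was in 2 (6.06%), Cox8b and Atp5l, beside 14.3% of all regions. Subunit regions had a median GC content of 57.0%, against 52.3% over all regions, and GC content alters how often such motifs occur. The 27457 regions were the first listed for each symbol, whether or not the gene was expressed in soleus. Shares among expressed genes alone were not taken, so the contrasts cannot be read as particular to these subunits. A match in these windows is a description of the letters and does not show that a factor binds there.

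Genes that build or feed these complexes gave counts of the same kind. Assembly factors, the proteins that insert cofactors and join subunits, had 21 of 23 tested genes lower and 2 higher in high-fat animals, with a median of -0.10 and 0 called. Among them Coa5, which acts in complex IV assembly, averaged 265 ± 46.4 CPM in high-fat animals and 320.2 ± 34.5 CPM in control animals, a fold change of -0.27 ± 0.12 (edgeR adjusted p = 0.974). Atpaf1, which helps to assemble the head of complex V, had -0.31 ± 0.19, and Cox19, a copper-handling factor, had -0.21 ± 0.14. The electron carrier list, made of cytochrome c and ubiquinone synthesis genes, had 8 of 9 tested genes lower with a median of -0.17, -0.07 without high-fat animal 5 and -0.09 without control animal 6, led by p by Coq5 at -0.21 ± 0.11, Coq3 at -0.21 ± 0.13 and Coq4 at -0.18 ± 0.14, which are ubiquinone synthesis genes. Complex I subunits, the entry point for electrons from NADH, had 33 of 35 lower with a median of -0.11, which was -0.03 without high-fat animal 5, -0.03 without control animal 4 and -0.05 without control animal 6, including Ndufa2 at -0.23 ± 0.15 and Ndufs3 at -0.22 ± 0.15. None of these genes was called over all genes tested.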

How the data were processed

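Poly(A) RNA from soleus was sequenced, and the authors deposited raw read counts per gene, with no normalization. The submitters' processing notes name FastQC, BWA, HTSeq and edgeR without versions; no source used here names the build, annotation or strand setting. Each column was tied to its animal through the animal's name; high-fat animals 2 to 5 here carry the numbers 3 to 6 in the deposited column names. Further, the labels give 1 animal per litter, so the tests between diets compare animals of different litters. Spread between litters and spread within a litter cannot be told apart. Counts were tested with edgeR 4.0.16 (R 4.3.3, limma 3.58.1): filterByExpr by group removed 5996 of 16810 rows, TMM factors ran from 0.897 to 1.12, and glmQLFTest p-values were adjusted by Benjamini-Hochberg at 0.05. No covariate was used. Read ratios had 0.5 added to each count. Correlations used 100000 permutations, with SciPy 1.17.1, and exact enumeration without 2 animals. Limits from 3 counts cover counting error only. Symbols were matched to RefSeq by current name for 28 members and by synonym for 19. All high-fat values with the lowest, median and highest control value are given for the form pairs, for complex II, and for the 3 members with the smallest p and the 1 with the largest fold change in each other complex; other pathway lists name up to 3 genes by p. Alternatives covered scaling, filters, DESeq2 1.42.0, limma voom, the likelihood ratio test, the name's initial letter as a covariate and leaving out animals. Members, lists and motifs were chosen with earlier results of these data known.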

Additional observations from a re-analysis of the deposited data

Results flagged for a closer look

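The log2 ratio of Atp5g1 to Atp5g3 reads in control animal 4 was -1.03, far from the next control animal at -1.59, a gap that took up 0.708 of the whole range of the 6 control animals. It was the 1 such value in 64 groups of values checked. By chance about 1 group in 20 would hold such a value, so 1 in 64 is no more than chance gives.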

How the results depend on the processing

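No member was called in any of 21 alternative fits of the gene test. Over all genes, 7 were called by DESeq2 and 8 by edgeR's likelihood ratio test, where edgeR's quasi-likelihood test called 0 (523 at an unadjusted p below 0.05) and limma voom 0; the cause was not tested. Of 462 values of single genes under alternatives, 427 kept their sign and side of the threshold and 35 changed sign. Sdha was 0.01 with library size scaling, Cox4i2 was -0.06 with limma voom and -0.10 in the fit with the initial letter of the name, Cox6a1 was -0.01 and Cox8a -0.04 in that fit, and Cox8a was -0.01 with upper quartile scaling. Without high-fat animals 4 and 5 together, an alternative chosen after seeing the data, Sdhb was 0.09, Cox4i1 0.08, Cox6a2 0.08, Atp5g3 0.00 and the Atp5g2 over Atp5g3 ratio -0.01, with 24 subunits lower and 16 higher. Over the fits that left out 1 animal each, log2 fold changes spanned -0.09 to 0.05 for Sdha, -0.16 to 0.04 for Sdhb, -0.15 to 0.06 for Cox4i1, -0.19 to 0.23 for Cox4i2, -0.01 to 0.14 for Cox6a1, -0.14 to 0.05 for Cox6a2, -0.06 to 0.11 for Cox8a, -0.26 to 0.03 for Cox8b and -0.15 to 0.01 for Atp5g2. The complex medians spanned -0.18 to -0.03 for II, -0.22 to -0.05 for III, -0.15 to 0.03 for IV and -0.19 to -0.03 for V. The ratio differences spanned -0.17 to -0.01 for Cox6a2 over Cox6a1, -0.24 to -0.01 for Cox8b over Cox8a, -0.09 to 0.35 for Cox4i2 over Cox4i1, -0.10 to 0.06 for Atp5g1 over Atp5g3 and 0.00 to 0.13 for Atp5g2 over Atp5g3. The r of Cox8b over Cox8a spanned -0.87 to -0.49 with the myosin ratio and -0.81 to -0.65 with matrix markers. List medians spanned -0.15 to -0.07 for assembly factors, -0.20 to -0.07 for electron carriers, -0.18 to -0.03 for complex I, -0.15 to -0.02 for slow fibre, -1.22 to -0.38 for fast fibre, 0.31 to 0.90 for macrophage, 0.02 to 0.53 for matrix and -0.54 to 0.23 for adipocyte markers. No paired analysis was possible because every animal came from its own litter and the labels do not pair animals across the diets. With 5 and 6 animals the standard error was larger than the fold change for all but 6 of 40 subunits, while 3690 of all 10814 genes had a fold change above its standard error.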

Other observations

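Liver markers (Alb, Ttr and Serpina1) summed to 64.5 CPM in high-fat animal 3 and 27.0 CPM in high-fat animal 4, against 24.8 CPM in control animal 1. The other animals held 0 to 0.895 CPM with a high-fat mother and 0.456 to 1.97 CPM with a control mother. No gene of that list was tested. Myh6, a heart chamber myosin that slow muscle also holds, averaged 653 ± 234 CPM in high-fat animals and 638 ± 196 CPM in control animals (SD, n = 5 and 6).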
